A study of Mus musculus with 16 samples.

Results

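The nuclear pore and nuclear transport receptors comprised 42 of the 19938 genes measured, 19 nucleoporins with names in Nup and 23 transport receptors with names in Ipo, Xpo, Tnpo, Kpna or Kpnb. They were taken by gene symbol, and each gene was read from its array feature with the highest mean over all 16 arrays, so that mean signal chose the feature and not the gene. Kpna2 had 3 features and Nup210l had 9, and each other member had 1. The tissues were the isolated retinal pigment epithelium (RPE), the epithelial layer that serves the photoreceptors, and the neurosensory retina (NSR), the layer of photoreceptors and retinal neurons. Both came from the same 8 male Balb/cJ mice, an albino strain, aged 10 weeks. In the RPE light and NSR light groups, 4 mice had been under cool white fluorescent light at 10000 lux for 18 hours and were killed 4 hours later. In the RPE control and NSR control groups, 4 mice had stayed on a regular light-dark cycle of 12 hours. Each group thus held 4 arrays, 1 for each mouse. The question was how bright light and tissue change expression of the transport machinery.

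Nuclear pores are channels through the nuclear envelope, built from a scaffold of ring-forming nucleoporins, a channel lined by nucleoporins rich in phenylalanine-glycine (FG) repeats, and a basket on the nuclear side. Importins and exportins bind cargo, pass through the FG repeats and load or release it according to the state of the small GTPase Ran. Importin alpha proteins are adaptors that join cargo with a classical nuclear localisation signal to importin beta 1, while most other receptors of the beta family bind cargo directly.

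Levels are log2 expression values, on which a difference of 1 is a doubling, and single values follow the mouse numbers 1 to 4. Array medians over all features lay between 6.38 and 6.43 in RPE light, 6.41 and 6.42 in RPE control, 6.52 and 6.55 in NSR light and 6.55 and 6.57 in NSR control. Levels of different genes come from different probes and are not set against each other here. The mean over all arrays was 5.68 for Kpna7, just above the level of 5.63 below which the dimmest 25% of genes lay, and 0 members lay below that level. Precision is set by having 4 arrays in each group. Mouse numbers mark separate animals, so that the spread within a group is between mice. In tissue RNA, fewer cells of a type and less RNA in each cell cannot be told apart.

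The dissected tissues carried their defining markers. Rpe65, the visual cycle isomerase of the RPE, lay between 11.99 and 12.42 in RPE light and between 12.86 and 12.95 in RPE control, against 3.93 to 4.36 in NSR light and 4.17 to 5.70 in NSR control. Best1, an RPE chloride channel, lay between 5.62 and 5.92 in RPE light and between 5.67 and 5.97 in RPE control, close to its values of 5.45 to 5.75 in NSR light and 5.56 to 5.67 in NSR control. The median of the 15 rod markers was 11.06 to 11.35 in NSR light and 12.10 to 12.17 in NSR control, and 14 of the 15 fell in NSR. In RPE that median was 7.87 to 8.58 with light and 7.99 to 8.46 in control mice, and 0 of the 15 were called there, with 2 lower and 0 higher at an unadjusted p under 0.05. Gnat1, the rod transducin alpha subunit, lay between 10.68 and 11.33 in RPE light and between 10.64 and 11.44 in RPE control, against 13.14 to 13.21 in NSR light and 13.36 to 13.38 in NSR control, so that every RPE array carried rod signal. Of the 16 RPE markers 11 fell in RPE, with medians of 11.81 to 12.08 in RPE light and 12.37 to 12.39 in RPE control. The RPE samples also carried signal of other cell types. In control mice, 7 of 8 fibroblast and pericyte markers were called higher in RPE than in NSR and 1 lower. Of 12 microglial and macrophage markers 9 were higher and 0 lower, and of 8 endothelial markers 2 were higher and 3 lower. Of all genes, 30.8% were higher and 24.2% lower. RPE light 2 had a median of 8.79 for the 10 markers of cornea and ciliary epithelium, against 6.25 to 6.53 on the other RPE light arrays. RPE control 2 had a median of 7.06 for the 11 lens markers, against 6.35 to 6.52 on the other RPE control arrays. RPE light 1 had the highest rod median of its group, 8.58, with the others at 7.87 to 8.11. In 1 alternative these 3 RPE arrays were left out at the same time.

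In RPE, 14 of the 42 members rose with light, where 9.08% of all genes did, and 0 fell, where 8.53% of all genes did. At an unadjusted p under 0.05, 23 were higher and 2 lower. All genes were not counted at that threshold, for this or the other unadjusted counts given, and the shares above are for adjusted p. In NSR, 9 members rose, against 8.87% of all genes, and 3 fell, against 6.24% of all genes. In mean level, 39 of the 42 lay above the median gene. With the dimmest 25% of genes left out, 1902 of 14953 genes rose and 1773 fell in RPE, beside 16 and 0 members. In NSR, 1853 of these genes rose and 1312 fell, beside 10 and 3 members. The median log2 difference of the 42 was 0.17 in RPE and 0.07 in NSR, beside -0.01 and -0.02 over all genes tested. Genes were called at an adjusted p under 0.05 in limma's moderated test, adjusted over all 19938 genes. Of the nucleoporins, 9 of 19 rose in RPE and 2 of 19 in NSR, and 0 fell in either tissue, with 0 lower at an unadjusted p under 0.05, although after quantile normalization Nup85 was called lower in NSR. Of the transport receptors, 5 of 23 rose in RPE and 0 fell, with 2 lower at an unadjusted p under 0.05, while 7 of 23 rose and 3 fell in NSR. The count for RPE depended on the arrays, as did that of all 19938 genes, 1810 with every RPE array kept. It was 11 without RPE control 4 or without RPE light 2, where 1484 and 1503 of all genes rose. It was 4 when the 3 RPE arrays that stood apart in markers were all left out, where 998 of all genes rose. The 4 were Ipo4, Ipo5, Nup37 and Nup62, and all 14 kept their direction there, with log2 differences of 0.22 to 0.93.

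**Figure D1:**
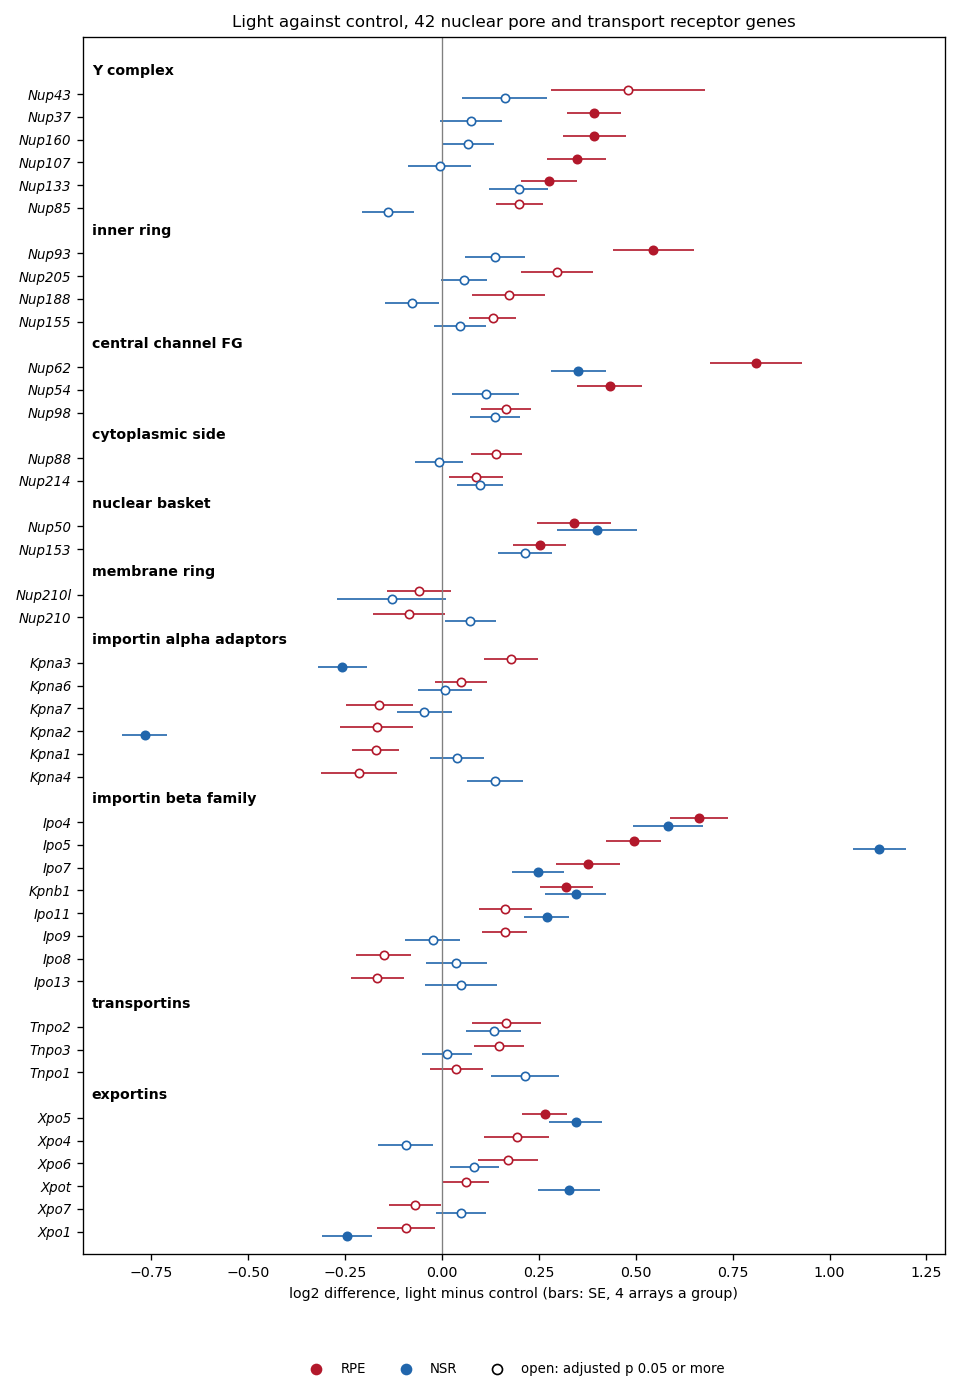
Log2 difference of light minus control (x axis) for each of the 42 genes, grouped by role, in RPE (red) and NSR (blue), with bars for the SE from 4 arrays a group and filled points for an adjusted p under 0.05. In RPE the 14 filled points all lie right of 0, from 0.25 for Nup153 to 0.81 for Nup62, while in NSR 3 of the 12 filled points lie left of 0, with Kpna2 at -0.77.

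Ipo4, Ipo5, Ipo7, Kpnb1, Nup50, Nup62 and Xpo5 rose with light in both tissues. These are 7 of the 42 members, while 644 of all genes, 3.23%, rose in both. They included 4 of the 8 measured members of the importin beta family. Ipo4, an importin that carries histones and ribosomal proteins, stood at 8.68, 8.85, 8.96 and 8.83 in RPE light, against 8.22, 8.10, 8.25 and 8.11 in RPE control. In NSR light it stood at 8.17, 8.28, 8.32 and 8.07, against 7.55, 7.67, 7.45 and 7.84 in NSR control. Light and control arrays did not overlap in either tissue. The rise was 0.66 ± 0.07 in RPE (SE, adjusted p = 0.000252) and 0.58 ± 0.09 in NSR (adjusted p = 0.000892), and was 1.58-fold in RPE.

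Ipo5, an importin for ribosomal proteins and core histones, showed the largest rise of the 42 in NSR. It stood at 10.49, 10.53, 10.37 and 10.61 in NSR light, against 9.37, 9.32, 9.36 and 9.43 in NSR control, a 2.18-fold difference (1.13 ± 0.07 on the log2 scale, adjusted p = 4.59e-07). In RPE light it stood at 9.67, 9.63, 9.70 and 9.57, against 9.21, 9.11, 9.01 and 9.26 in RPE control. The groups stayed apart in both tissues, and the rise in RPE was 1.41-fold (0.49 ± 0.07, adjusted p = 0.000997). Ipo5 in NSR was the single change of 2-fold or more among the 42 members in either tissue.

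Nup62, an FG nucleoporin of the central channel, showed the largest rise of the 42 in RPE. It stood at 9.79, 9.89, 10.11 and 9.81 in RPE light, against 9.08, 9.28, 9.24 and 8.77 in RPE control, where the fourth mouse lay lowest. The difference was 1.75-fold (0.81 ± 0.12, adjusted p = 0.00113). In NSR light it stood at 9.48, 9.63, 9.59 and 9.36, against 9.15, 9.20, 9.14 and 9.17 in NSR control, a difference of 0.35 ± 0.07 (adjusted p = 0.00541). Light arrays lay above control arrays in both tissues.

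Kpnb1, which encodes importin beta 1, the receptor that the importin alpha adaptors bind, stood at 9.72, 9.71, 9.89 and 9.63 in RPE light, against 9.44, 9.36, 9.41 and 9.46 in RPE control. In NSR light it stood at 9.59, 9.66, 9.78 and 9.75, against 9.25, 9.54, 9.27 and 9.33 in NSR control. The second NSR control mouse came close to the lowest NSR light mouse, without overlap. The rises were 0.32 ± 0.07 in RPE (adjusted p = 0.00922) and 0.34 ± 0.08 in NSR (adjusted p = 0.0116). Xpo5, which exports microRNA precursors, stood at 8.92, 8.90, 9.04 and 8.93 in RPE light, against 8.72, 8.69, 8.65 and 8.67 in RPE control. In NSR light it stood at 8.39, 8.57, 8.56 and 8.37, against 8.11, 8.13, 8.10 and 8.17 in NSR control. Its groups did not overlap, and it rose by 0.26 ± 0.06 in RPE (adjusted p = 0.0105) and by 0.35 ± 0.07 in NSR (adjusted p = 0.00461).

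Nup50, a basket nucleoporin that helps release cargo from importin alpha, stood at 9.57, 9.65, 9.94 and 9.63 in RPE light, against 9.37, 9.19, 9.51 and 9.37 in RPE control. In NSR light it stood at 9.11, 8.93, 9.42 and 8.94, against 8.60, 8.67, 8.81 and 8.72 in NSR control. The third mouse was the highest in all 4 groups, and light and control arrays did not overlap in either tissue. The rises were 0.34 ± 0.10 in RPE (adjusted p = 0.0352) and 0.40 ± 0.10 in NSR (adjusted p = 0.0217). The RPE call was lost without RPE control 1, 2 or 4 or RPE light 2, 3 or 4 in turn, at an adjusted p of 0.0521 to 0.0932. The NSR call was lost without NSR control 1 (0.0631) or NSR control 2 (0.0551). Ipo7, an importin for ribosomal proteins and, together with importin beta 1, for linker histone, stood at 9.65, 9.63, 9.95 and 9.59 in RPE light, against 9.30, 9.35, 9.31 and 9.37 in RPE control. In NSR light it stood at 10.08, 10.18, 10.22 and 10.10, against 9.90, 9.99, 9.91 and 9.79 in NSR control. The third RPE light mouse lay highest, and the groups did not overlap in either tissue. Ipo7 rose by 0.38 ± 0.08 in RPE (adjusted p = 0.0109) and by 0.25 ± 0.07 in NSR (adjusted p = 0.0277). Its NSR call was lost without NSR control 1, 3 or 4 or NSR light 2 or 3 in turn, at an adjusted p of 0.058 to 0.0801.

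**Figure D2:**
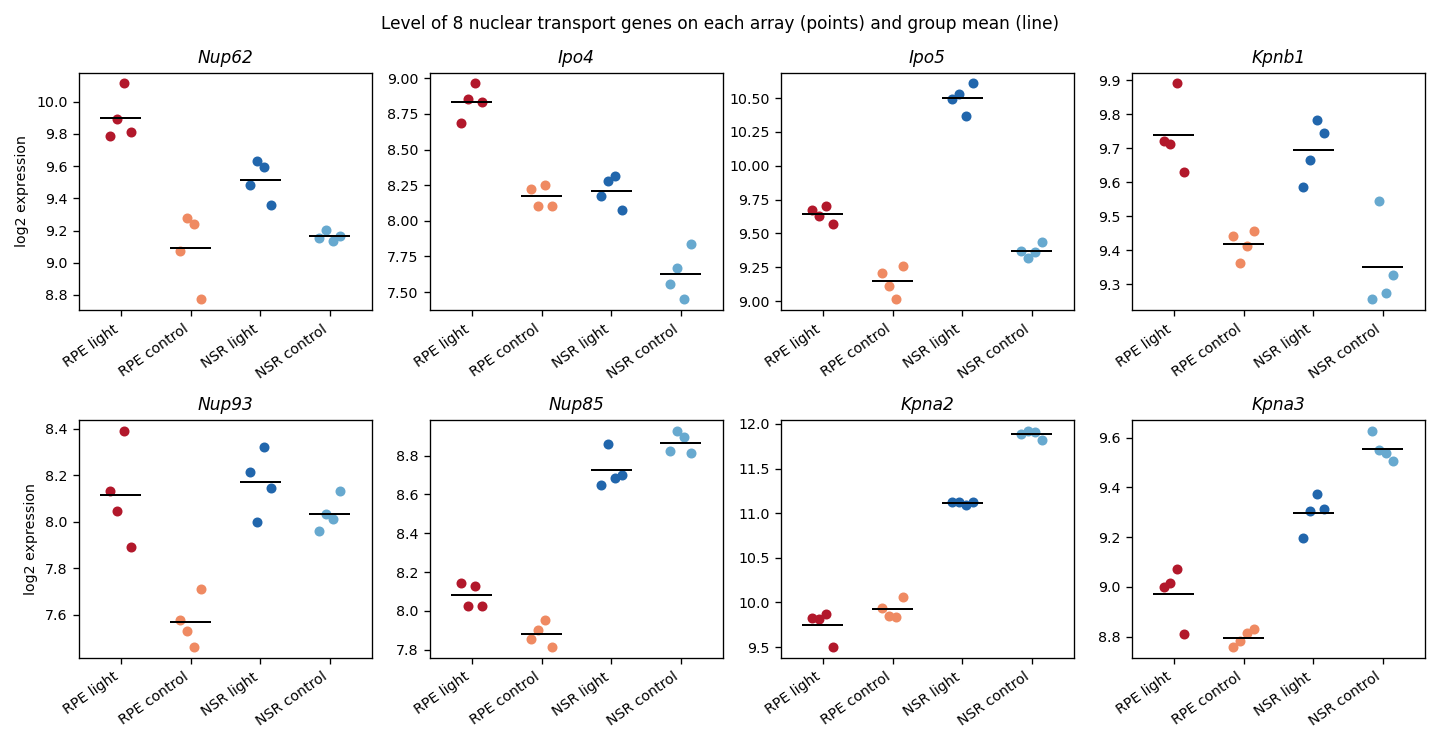
Log2 expression (y axis, scaled separately for each gene) of 8 members on each array, as points by group with the group mean as a line. Nup62, Ipo4, Ipo5 and Kpnb1 lie higher on all light arrays than on all control arrays of their tissue, Nup93 and Nup85 do so in RPE, and Kpna2 and Kpna3 lie lower on all NSR light arrays than on all NSR control arrays.

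Start regions of 4 of the members that rose in both tissues, and of Kpna2, which had the largest fall in NSR, are shown. Ipo4, Ipo5, Nup62 and Kpna2 had the largest called light differences in RPE or NSR, and Ipo7 is shown as the other member called higher in both tissues whose window held CACGTG. Each run covers 250 bases before to 50 bases after an annotated start, 5′ to 3′ on the strand of the gene, from RefSeq on build GRCm38.p6. The Ipo4 window is chr14:55635635-55635934 on the minus strand, the Ipo5 window chr14:120910944-120911243 on the plus strand and the Ipo7 window chr7:110018065-110018364 on the plus strand. A further Ipo5 window, chr14:120915597-120915896, had 0 matches and is not shown. The Nup62 window is chr7:44815838-44816137 on the plus strand and the Kpna2 window chr11:106999476-106999775 on the minus strand. Capitals mark matches, on either strand, to CACGTG, to CCAAT, to TGCGCA, to CCGGAAG and to GGGCGG, and matches may overlap.
Ipo4: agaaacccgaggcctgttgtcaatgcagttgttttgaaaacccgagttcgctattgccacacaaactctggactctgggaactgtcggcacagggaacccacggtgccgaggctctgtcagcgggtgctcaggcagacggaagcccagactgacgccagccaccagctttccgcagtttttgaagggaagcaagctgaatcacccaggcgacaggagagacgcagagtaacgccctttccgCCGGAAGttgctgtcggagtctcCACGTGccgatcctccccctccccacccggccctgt
Ipo5: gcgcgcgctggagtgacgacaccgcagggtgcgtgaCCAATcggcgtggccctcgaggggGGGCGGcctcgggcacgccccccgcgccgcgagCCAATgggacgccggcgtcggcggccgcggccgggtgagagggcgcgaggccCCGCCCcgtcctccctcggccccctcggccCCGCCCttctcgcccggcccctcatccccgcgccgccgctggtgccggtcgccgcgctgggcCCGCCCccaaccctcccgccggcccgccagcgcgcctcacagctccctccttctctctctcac
Ipo7: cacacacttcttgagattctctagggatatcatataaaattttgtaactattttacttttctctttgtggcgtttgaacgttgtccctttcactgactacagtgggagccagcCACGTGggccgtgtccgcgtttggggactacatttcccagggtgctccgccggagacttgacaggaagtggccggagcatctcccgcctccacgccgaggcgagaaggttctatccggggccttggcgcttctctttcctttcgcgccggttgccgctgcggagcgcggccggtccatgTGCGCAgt
Nup62: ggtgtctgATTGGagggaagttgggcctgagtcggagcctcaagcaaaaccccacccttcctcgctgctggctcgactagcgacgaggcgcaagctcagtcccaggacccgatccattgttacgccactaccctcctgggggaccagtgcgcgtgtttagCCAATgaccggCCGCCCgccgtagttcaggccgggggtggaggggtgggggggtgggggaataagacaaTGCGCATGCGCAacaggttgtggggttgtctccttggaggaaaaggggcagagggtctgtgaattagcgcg
Kpna2: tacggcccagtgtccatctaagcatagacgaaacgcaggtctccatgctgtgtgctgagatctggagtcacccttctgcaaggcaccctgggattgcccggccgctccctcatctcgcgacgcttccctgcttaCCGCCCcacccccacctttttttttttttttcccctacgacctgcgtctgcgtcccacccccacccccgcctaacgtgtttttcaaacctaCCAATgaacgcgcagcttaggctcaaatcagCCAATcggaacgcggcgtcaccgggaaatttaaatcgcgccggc

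CACGTG was found once in the Ipo4 window and once in the Ipo7 window, and CCGGAAG once in the Ipo4 window. TGCGCA was found once for Ipo7 and 2 times for Nup62, in tandem. CCAAT was found 2 times each in the windows shown for Ipo5, Nup62 and Kpna2, and GGGCGG 4 times in that for Ipo5 and 1 time each for Nup62 and Kpna2. Of the 42 members, 34 had a window in the table, 41 windows in all, some of them overlapping. The shares of member windows are given beside those of 19116 windows of genes tested and of the 32851 windows counted, called all windows below. Windows on 1 chromosome, where no member lies, were left out of these counts. CACGTG was in 17.1% of member windows, against 8.26% of windows of genes tested and 7.15% of all windows. TGCGCA was in 19.5%, against 10.3% and 7.76%, and CCGGAAG in 17.1%, against 12.1% and 8.86%. CCAAT was in 53.7%, against 37.4% of each, and GGGCGG in 63.4%, against 49.3% and 35.7%. The 7 members that rose in both tissues had 8 windows, of which 2 held CACGTG, 4 TGCGCA, 4 CCAAT, 1 CCGGAAG and 5 GGGCGG. A match is a run of letters and was not tested as a binding site.

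Another 7 members were called higher in RPE and not in NSR, and all are nucleoporins. Of all genes, 1166, or 5.85%, were called in this way. The difference of the responses was not called for 5 of the 7, and was 0.08 for Nup133 and 0.04 for Nup153. Nup93, a scaffold protein of the inner ring, stood at 8.13, 8.05, 8.39 and 7.89 in RPE light, against 7.58, 7.53, 7.46 and 7.71 in RPE control. The groups did not overlap, and the rise was 1.46-fold (0.55 ± 0.10, adjusted p = 0.00496). Nup54, which lines the central channel together with Nup62, stood at 8.28, 8.29, 8.44 and 8.32 in RPE light, against 7.72, 7.85, 7.94 and 8.09 in RPE control. It rose by 0.43 ± 0.08 (adjusted p = 0.00516) without overlap. Nup98, the other FG nucleoporin placed in the central channel here, had a difference of 0.17 ± 0.06 that did not pass (adjusted p = 0.118).

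The Y complex, the outer scaffold of the pore, had 4 of 6 members called higher in RPE, and its 6 differences in RPE lay between 0.20 and 0.48. Nup37 stood at 7.85, 8.02, 7.99 and 7.89 in RPE light, against 7.44, 7.66, 7.55 and 7.54 in RPE control, a rise of 0.39 ± 0.07 without overlap (adjusted p = 0.00331). Nup160, a long arm protein of the complex, stood at 9.25, 9.45, 9.45 and 9.20 in RPE light, against 8.97, 8.85, 8.90 and 9.07 in RPE control, a rise of 0.39 ± 0.08 without overlap (adjusted p = 0.00769). Nup107 and Nup133, which pair in the stem of the Y, rose by 0.35 ± 0.08 (adjusted p = 0.00986) and 0.28 ± 0.07 (adjusted p = 0.0251). The call of Nup133 was lost without RPE control 2, 3 or 4 or RPE light 2 or 4 in turn, at an adjusted p of 0.0578 to 0.0655. Nup85 missed the threshold with a difference of 0.20 ± 0.06 (adjusted p = 0.0514), although its RPE light arrays, at 8.14, 8.03, 8.13 and 8.03, all lay above its RPE control arrays, at 7.86, 7.90, 7.95 and 7.81. Nup43 had 7.56, 7.79, 8.31 and 7.37 in RPE light, against 7.41, 7.53, 6.88 and 7.28 in RPE control, and the spread between mice, with the third light mouse highest and the third control mouse lowest, left its difference of 0.48 ± 0.20 uncalled (adjusted p = 0.144).

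Nup153, an FG nucleoporin of the basket, rose by 0.25 ± 0.07 in RPE (adjusted p = 0.0301). That call was lost without any 1 array other than RPE light 4, at an adjusted p of 0.0537 to 0.085. In the inner ring, Nup205 had a difference of 0.30 ± 0.09 that missed the threshold (adjusted p = 0.0536), and Nup188 and Nup155 had 0.17 and 0.13. On the cytoplasmic side, Nup88 and Nup214 had 0.14 and 0.09, and in the membrane ring Nup210 and Nup210l had -0.09 and -0.06, all uncalled. Of 19 proliferation markers, 3 rose and 2 fell in RPE, with medians of 6.06 to 6.31 in RPE light and 5.92 to 6.13 in RPE control. Microglial and macrophage markers, of which 2 of 12 rose and 1 fell in RPE, had medians of 7.12 to 7.71 in RPE light and 6.96 to 7.68 in RPE control. For neutrophils and monocytes, 3 of 9 markers rose in RPE and 0 fell, with 4 higher and 0 lower at an unadjusted p under 0.05, and their medians were 5.66 to 5.85 in RPE light and 5.64 to 5.81 in RPE control. The part of these cell types in the RPE differences was not tested.

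Among the transport receptors of RPE, 0 of 6 importin alpha adaptors, 0 of 3 transportins and, of 6 exportins, only Xpo5 were called. At an unadjusted p under 0.05, 1 importin alpha adaptor was higher and 1 lower, and 1 transportin was higher. Kpna1 had 9.34, 9.42, 9.43 and 9.47 in RPE light, against 9.55, 9.53, 9.60 and 9.67 in RPE control, lower on all light arrays with a difference of -0.17. Its adjusted p was 0.0867, and it was called in a fit with an intensity trend and robust prior. Kpna4 had a difference of -0.21 (adjusted p = 0.186), and without RPE light 1 it was the 1 member called lower.

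In NSR the 3 members that fell were the adaptors Kpna2 and Kpna3 and the exportin Xpo1. Kpna2, which encodes an importin alpha for classical localisation signals, stood at 11.13, 11.13, 11.09 and 11.12 in NSR light, against 11.88, 11.92, 11.91 and 11.82 in NSR control. The NSR light mice lay close together and far below the NSR control mice, and Kpna2 fell by 0.77 (SE 0.06), or to a level 1.70-fold lower (adjusted p = 2.87e-06). All 3 features with this symbol fell alike in NSR, by 0.74 to 0.77, and features of a gene with near-identical copies can share RNA. In RPE, Kpna2 stood at 9.83, 9.82, 9.87 and 9.50 in light-exposed mice, against 9.94, 9.85, 9.83 and 10.06 in control mice, with overlap and no call (difference -0.17 ± 0.09, adjusted p = 0.288). Kpna3, another importin alpha, stood at 9.20, 9.31, 9.37 and 9.31 in NSR light, against 9.63, 9.55, 9.54 and 9.50 in NSR control, a difference of -0.26 ± 0.06 without overlap (adjusted p = 0.0175). That call did not hold once NSR control 1 (adjusted p = 0.0528) or NSR light 1 (0.0525) was dropped. Xpo1, which exports proteins with a leucine-rich export signal, stood at 10.34, 10.46, 10.27 and 10.33 in NSR light, against 10.66, 10.56, 10.60 and 10.56 in NSR control, a difference of -0.24 ± 0.06 (adjusted p = 0.0239). That call was lost without NSR control 1 or 3 or NSR light 1, 3 or 4 in turn, at an adjusted p of 0.0507 to 0.0679. Rod markers fell in the same NSR arrays, 14 of 15 with a median difference of -0.51, while of 8 markers of Mueller glia 3 rose and 3 fell in NSR, with differences from -1.53 to 1.67. Of 12 microglial and macrophage markers 4 rose and 0 fell there, with 1 lower at an unadjusted p under 0.05. Of 16 RPE markers 0 rose and 4 fell in NSR. The part of these cell types in the falls of Kpna2, Kpna3 and Xpo1 was not tested.

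Xpot and Ipo11 were called higher in NSR and not in RPE. Xpot, the exportin of transfer RNA, rose by 0.33 ± 0.08 in NSR (adjusted p = 0.0158), and the call was lost without NSR light 2 (0.0517). Its arrays stood at 8.44, 8.74, 8.68 and 8.58 in NSR light, against 8.18, 8.24, 8.32 and 8.40 in NSR control. Ipo11, an importin for ubiquitin-conjugating enzymes, rose by 0.27 ± 0.06 (adjusted p = 0.008), and was not called after quantile normalization (0.185, adjusted p = 0.0614). It stood at 8.57, 8.52, 8.52 and 8.56 in NSR light, against 8.29, 8.30, 8.29 and 8.20 in NSR control. Neither gene's NSR groups overlapped. The transportins had differences of 0.21 for Tnpo1, 0.13 for Tnpo2 and 0.01 for Tnpo3 in NSR, all uncalled. Nup153, called in RPE, had a difference of 0.21 in NSR that missed the threshold (adjusted p = 0.0626), with its light arrays all above its control arrays.

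The difference of the light responses, RPE minus NSR, asked whether the tissues responded unequally. It was called positive for 6 members, where 5.16% of all genes were, and negative for 1, where 8.05% of all genes were. The median over the 42 was 0.08, beside 0.02 over all genes. Kpna2 had a difference of 0.60 ± 0.11 (adjusted p = 0.000945), from responses of -0.17 in RPE and -0.77 in NSR. Kpna3 had a difference of 0.43 ± 0.09 (adjusted p = 0.00278): its RPE arrays read 9.0, 9.01, 9.07 and 8.81 in light-exposed mice, against 8.76, 8.78, 8.82 and 8.83 in control mice, an overlap by 1 mouse, while its NSR arrays moved down. Ipo5 had the negative difference, -0.63 ± 0.09 (adjusted p = 0.000174), its rise being larger in NSR. Kpna2, Kpna3 and Ipo5 kept these calls under all 25 alternatives run.

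The other 4 members with a called difference were nucleoporins, 3 of them in the Y complex. Nup85 had a difference of 0.34 ± 0.09 (adjusted p = 0.0131), with responses of 0.20 in RPE and -0.14 in NSR, neither called by itself. In NSR it stood at 8.65, 8.86, 8.69 and 8.70 with light, against 8.82, 8.93, 8.89 and 8.81 in control mice, which overlapped. Its adjusted p was 0.0542 when the 3 RPE arrays that stood apart in markers were left out. Nup62 had a difference of 0.46 ± 0.14 (adjusted p = 0.0403), Nup107 of 0.35 ± 0.11 (adjusted p = 0.044) and Nup160 of 0.32 ± 0.10 (adjusted p = 0.0451). In RPE, Nup107 stood at 8.31, 8.33, 8.21 and 8.36 with light, against 8.11, 7.83, 8.00 and 7.88 in control mice. In NSR it stood at 8.67, 8.40, 8.48 and 8.62 with light, against 8.66, 8.53, 8.60 and 8.40 in control mice. Its RPE groups did not overlap and its NSR groups did. These 3 calls were not stable: leaving out 1 array in turn lost them without 10 of the 16 arrays for Nup62, 11 for Nup107 and 12 for Nup160, at an adjusted p of 0.051 to 0.0963. With the mouse as a block, the call of Nup160 was lost (adjusted p = 0.0573), and Nup93 (0.41, adjusted p = 0.0221) and Nup54 (0.32, adjusted p = 0.0416) were called, against 0.0529 and 0.105 without it. For the members that rose in both tissues, the difference was 0.08 ± 0.12 for Ipo4, -0.02 ± 0.10 for Kpnb1 and -0.06 ± 0.15 for Nup50, none called. Of 15 rod markers, 4 had a called positive difference of response and 0 a negative one, with 0 negative at an unadjusted p under 0.05. Of 8 markers of Mueller glia, 2 had a positive and 2 a negative difference, and of 9 neutrophil and monocyte markers 2 had a positive and 0 a negative one, also at an unadjusted p under 0.05. Of 16 RPE markers, 1 had a called positive and 4 a negative difference. Microglial and macrophage markers had 1 and 2 of 12, and fibroblast and pericyte markers 2 and 1 of 8. The part of these cell types in the differences of response was not tested.

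**Figure D3:**
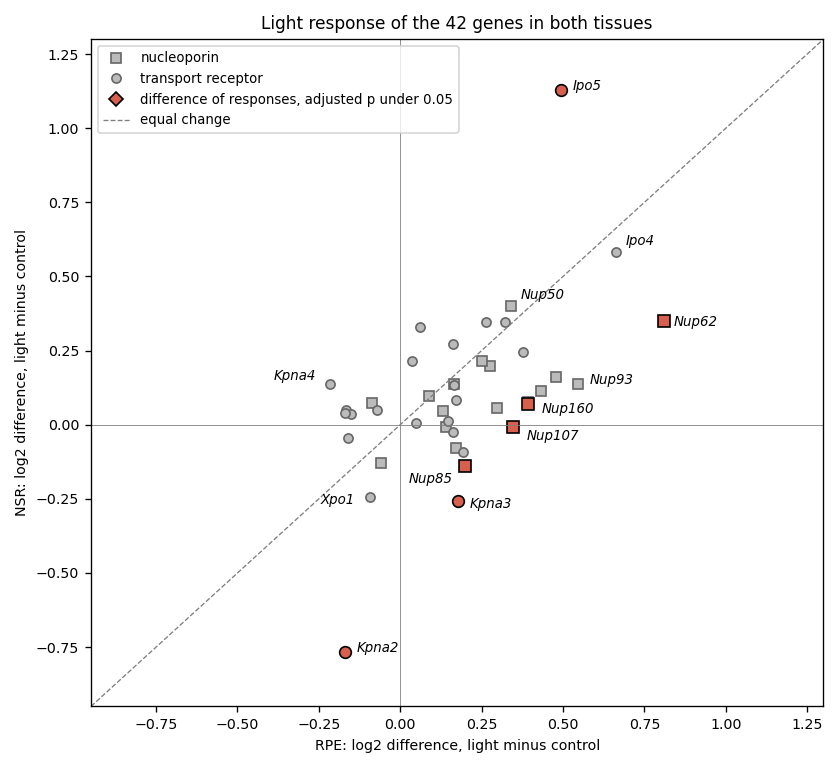
Log2 difference of light minus control in RPE (x axis) against that in NSR (y axis) for the 42 genes, with squares for nucleoporins, circles for transport receptors and larger red symbols where the difference of the responses passed an adjusted p of 0.05. Red symbols below the dashed line of equal change are Kpna2, Kpna3, Nup62, Nup85, Nup107 and Nup160, and Ipo5 lies above it at 0.49 in RPE and 1.13 in NSR.

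The comparison of tissues asked how the dissected layers differ in their transport machinery, in light-exposed mice and in control mice. Of the 42 members, 14 were higher in RPE light than in NSR light, where 34.4% of all genes were, and 15 were lower, where 23.6% of all genes were. The median difference, RPE minus NSR, was -0.07 for the members and 0.08 for all genes. In control mice, 10 members were higher in RPE, where 30.8% of all genes were, and 19 were lower, where 24.2% were, with a median of -0.14 beside 0.04. These splits depend on scaling. With each array centred on its median they were 17 higher and 9 lower in light-exposed mice and 16 and 15 in control mice. Of all 19938 genes, 10259 were then higher and 3804 lower in light-exposed mice, and 9625 and 3701 in control mice. The medians of all genes moved to 0.20 and 0.19. After quantile normalization the splits of the members were 10 higher and 19 lower in light-exposed mice and 8 and 23 in control mice. Those of all genes were then 6131 and 5287 in light-exposed mice, and 5571 and 5549 in control mice.

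Kpna2 and Tnpo1 had the largest tissue differences of the 42 in both kinds of mice, and in light-exposed mice they were within 1 SE of each other. Kpna2 was 2.58-fold lower in RPE light than in NSR light (-1.37 ± 0.08, adjusted p = 3.63e-11), and 3.90-fold lower in RPE control than in NSR control (-1.96 ± 0.08, adjusted p = 2.1e-13). Tnpo1, the transportin that imports many RNA-binding proteins, stood at 10.14, 9.94, 9.93 and 9.91 in RPE light, against 11.34, 11.33, 11.08 and 11.48 in NSR light, a difference of -1.33 ± 0.08 (adjusted p = 1.04e-10). In control mice it stood at 9.91, 9.95, 9.92 and 9.99 in RPE, against 11.06, 11.17, 10.98 and 11.17 in NSR, a difference of -1.15 ± 0.08 (adjusted p = 6.24e-10). All RPE arrays of Kpna2 and Tnpo1 lay below all NSR arrays.

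Nup85 differed, RPE minus NSR, by -0.64 in light-exposed mice (adjusted p = 4.94e-08) and by -0.98 in control mice (adjusted p = 1.36e-10). Kpna3 differed by -0.32 in light-exposed mice (adjusted p = 0.000235) and by -0.76 in control mice (adjusted p = 7.35e-09). Nup54 stood at 7.72, 7.85, 7.94 and 8.09 in RPE control, against 8.35, 8.45, 8.64 and 8.62 in NSR control, a difference of -0.61 without overlap (adjusted p = 7.21e-06). In light-exposed mice Nup54 differed by -0.29 (adjusted p = 0.00751), a call lost with array medians centred (-0.17, adjusted p = 0.1) and without the 3 RPE arrays that stood apart in markers (-0.25, adjusted p = 0.0806). Kpna4, an importin alpha close to Kpna3, stood at 8.49, 8.12, 8.07 and 8.19 in RPE light, against 9.01, 9.19, 9.19 and 9.14 in NSR light, a difference of -0.92 (adjusted p = 4.98e-08), and in control mice of -0.56. Ipo5 differed by -0.86 in light-exposed mice (adjusted p = 3.54e-09) and by -0.23 in control mice (adjusted p = 0.00816), a call that array-median centring removed (-0.08, adjusted p = 0.283). These 5 genes were called lower in RPE in both kinds of mice, outside the exceptions given for Nup54 and Ipo5.

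On the higher side, Xpot stood at 9.17, 9.20, 9.23 and 9.33 in RPE light, a difference from NSR light of 0.62 ± 0.07 (adjusted p = 4.43e-07). In control mice it stood at 9.21, 9.13, 9.17 and 9.17 in RPE, against 8.18, 8.24, 8.32 and 8.40 in NSR, a 1.85-fold difference (0.89 ± 0.07, adjusted p = 3.4e-09). Nup50 was higher in RPE by 0.60 in light-exposed mice (adjusted p = 8.58e-05) and 0.66 in control mice (adjusted p = 2.98e-05). Ipo13, a receptor that moves cargo both ways, stood at 8.27, 8.09, 8.29 and 8.25 in RPE control, against 7.54, 7.77, 7.70 and 7.66 in NSR control, a difference of 0.56 (adjusted p = 1.56e-05). RPE control and NSR control did not overlap for Xpot, Nup50 or Ipo13. Xpo5 was higher in RPE by 0.47 in light-exposed mice and 0.55 in control mice, and Ipo4 by 0.62 and 0.54 in the same order of mice. Ipo9, an importin for histones, stood at 9.30, 9.36, 9.43 and 9.38 in RPE light, against 8.86, 8.95, 8.71 and 8.96 in NSR light, a difference of 0.50 (adjusted p = 1.5e-06), and its difference in control mice, 0.31, was not called after quantile normalization (0.09, adjusted p = 0.263).

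By role, all 4 inner ring members were lower in RPE control than in NSR control, from -0.54 for Nup155 to -0.23 for Nup205. Nup205 was not called with array medians centred (-0.08, adjusted p = 0.349) or without RPE control 3 (-0.17, adjusted p = 0.076). In light-exposed mice 1 of the 4, Nup155, was called, and 2 were after quantile normalization. Of the importin alpha adaptors, Kpna2, Kpna3 and Kpna4 were lower and Kpna1 and Kpna6 higher in RPE in both kinds of mice, while Kpna7 differed by 0.01 in light-exposed mice and 0.13 in control mice, uncalled. Kpna1 in light-exposed mice lost its call without NSR light 1, NSR light 2 or RPE light 4 in turn (adjusted p of 0.0526 to 0.0909), and its difference was -0.0019 after quantile normalization. Nup62 was higher in RPE light than in NSR light by 0.39 ± 0.10 (adjusted p = 0.00308), and by 0.21 with an adjusted p of 0.0769 after quantile normalization, while its difference in control mice was -0.07, uncalled. With the mouse as a block, 2 small differences in control mice lost their calls, Nup88 (0.16, adjusted p = 0.0717) and Xpo7 (-0.15, adjusted p = 0.0671). RPE and NSR differ in cell types throughout, and the part of each cell type in these differences was not tested.

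**Figure D4:**
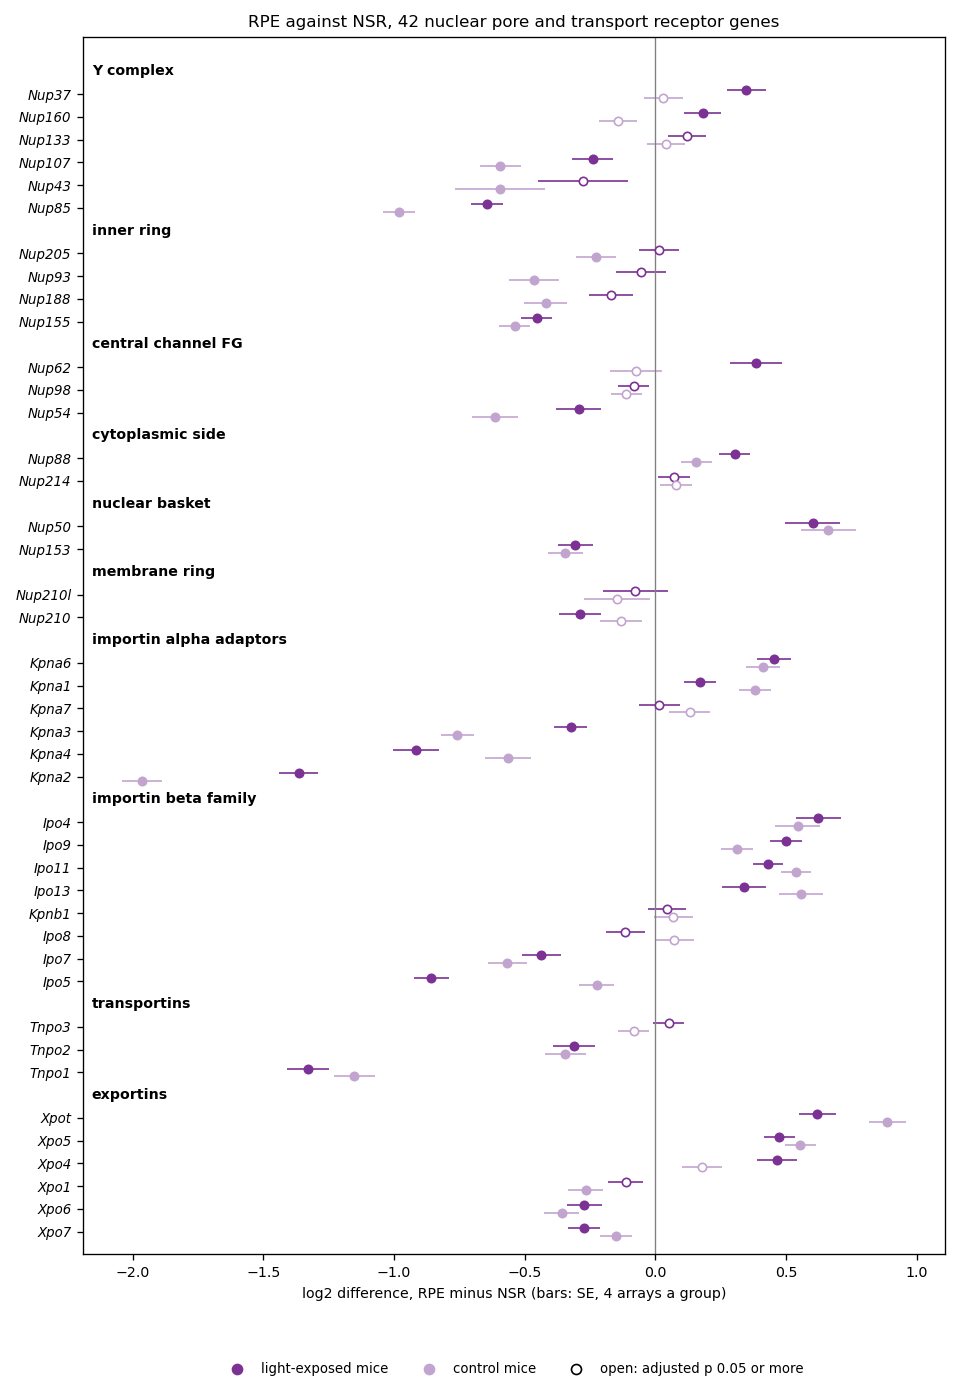
Log2 difference of RPE minus NSR (x axis) for each of the 42 genes, grouped by role, in light-exposed mice (dark) and control mice (pale), with bars for the SE from 4 arrays a group and filled points for an adjusted p under 0.05. Kpna2 and Tnpo1 lie below -1 in both kinds of mice, and Xpot, Nup50, Ipo4, Xpo5, Ipo11 and Kpna6 lie to the right of 0.4 in both.

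Other genes of nuclear transport were counted from lists, to be read beside the shares of all genes called, 9.08% higher and 8.53% lower in RPE and 8.87% higher and 6.24% lower in NSR. Of 7 genes in the list for the Ran cycle, 4 rose and 0 fell in RPE, with 0 lower at an unadjusted p under 0.05, and 1 rose and 1 fell in NSR. Ranbp1, a Ran binding protein that aids GTP hydrolysis, rose by 0.34 in RPE (adjusted p = 0.00835) and 0.45 in NSR (adjusted p = 0.00222). Rcc2, a listed gene whose part in the Ran cycle is not shown by these data, rose by 0.31 in RPE (adjusted p = 0.00885). Rangrf, a Ran release factor, changed by -0.39 in NSR (adjusted p = 0.00416). Of 12 nucleoporins with other names, 3 rose in RPE and 2 in NSR, and 0 fell in either, with 0 lower at an unadjusted p under 0.05. Sec13, which serves both the Y complex and the COPII coat, rose by 0.50 in RPE (adjusted p = 0.000355) and 0.35 in NSR (adjusted p = 0.0119). Seh1l, also of the Y complex, rose by 0.30 in NSR (adjusted p = 0.0378), and Nup62cl rose by 1.03 in RPE (adjusted p = 0.00989), where its control mean of 4.88 lay among the dimmest 25% of genes.

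Of 5 karyopherins and adaptors with other names, 1 rose and 0 fell in RPE, with 0 lower at an unadjusted p under 0.05, and 2 rose and 1 fell in NSR. Cse1l, the exportin that returns importin alpha to the cytoplasm, rose by 0.30 in RPE (adjusted p = 0.00705). Ranbp17 rose by 0.43 in NSR (adjusted p = 0.00416), and Ranbp6 changed by -0.27 there (adjusted p = 0.0193). Of 15 genes of bulk mRNA export, 3 rose and 1 fell in RPE, and 1 rose and 1 fell in NSR. Thoc5 and Thoc6, subunits of the THO complex, rose by 0.46 (adjusted p = 0.00837) and 0.44 (adjusted p = 0.0393) in RPE, and in NSR Thoc6 rose by 0.32 (adjusted p = 0.0211) while Thoc2 changed by -0.29 (adjusted p = 0.0121). Of 14 genes of the nuclear lamina and the LINC complex, 2 rose and 3 fell in RPE, and 1 rose and 1 fell in NSR. Lmna, which encodes lamins A and C, rose by 0.49 in RPE (adjusted p = 0.00178) and 0.31 in NSR (adjusted p = 0.012), and Syne3, a nesprin, changed by -0.56 in RPE (adjusted p = 0.000984) and -0.32 in NSR (adjusted p = 0.0184).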

How the data were processed

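The 16 samples, RPE and NSR of 8 mice, were each hybridised to an Affymetrix Mouse Gene 1.0 ST array with 1 dye. The values that the authors deposited are log2 expression, 1 for each of 35556 transcript clusters. The submitters' processing notes name RMA and Partek 6.6. The log2 scale was read from the values (2.20 to 13.84). No detection measure was used here, so the height above background is unknown. Per the labels' protocols, RNeasy Mini Kit extracts were amplified with the Ovation Pico WTA System. In the platform annotation, 21789 clusters carried a single symbol, 1621 carried more than 1 and 12146 carried none. The brightest single-symbol cluster of each gene left 19938 genes. All 42 members were found by identifier in a GRCm38.p6 gene table.

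Analyses of the deposited log2 values ran in limma 3.58.1 (R 4.3.3), with tables handled by pandas 2.3.3 and plots drawn by matplotlib 3.10.9 under Python 3.11.15. Light was compared with control within each tissue by lmFit and eBayes. The tissue contrasts and the difference of responses came from 1 fit of all 16 arrays with 4 group means. Benjamini-Hochberg adjustment ran over all genes, with calls at an adjusted p under 0.05. The fits were tested on simulated data. RPE and NSR with the same number came from 1 mouse per the labels, so the mouse pairs them. Their deviations from group means correlated between -0.01 and 0.05. Light and control mice of 1 number are different animals, and within a tissue their deviations correlated between -0.02 and 0.07. Among 120 pairs of arrays 0 were identical.

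The members, gene lists and tests were chosen with earlier results of these data known. Values on every array are given, for each light contrast, for up to 6 called members with the largest change each way. The difference of responses and each tissue contrast gave up to 5 each way, and other lists their 2 called genes with the largest change. Further members were named after their values were seen. Alternatives were other scaling, removal of the 25% of genes with the lowest means, the mean of a gene's clusters, other priors, array weights, a shared fit, a block and arrays left out.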

Additional observations from a re-analysis of the deposited data

Results flagged for a closer look

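On 10 of 168 combinations of member and group, 1 array stood apart from the other 3 by a share of the group's range above Dixon's critical value for 4 samples. Chance gives about 1 in 20 such groups, which is close to this count. In RPE light, the third mouse lay high for Ipo7 (9.95, others 9.59 to 9.65), Xpo1 (10.44, others 10.16 to 10.19) and Xpo6 (9.44, others 9.19 to 9.21). The first mouse of that group lay high for Tnpo1 (10.14, others 9.91 to 9.94) and Tnpo3 (9.72, others 9.52 to 9.55), and the fourth lay low for Kpna2 (9.50, others 9.82 to 9.87). In RPE control, the second mouse lay high for Ipo9 (9.26, others 9.18 to 9.19) and the third low for Nup153 (8.51, others 8.64 to 8.65). In NSR light, the third mouse lay low for Kpna2 (11.09, others 11.12 to 11.13), a gap of a few hundredths. In NSR control, the fourth mouse lay low for Ipo11 (8.20, others 8.29 to 8.30).

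In 7 of the 42 members the light response differed between RPE and NSR in the test of the difference itself, 6 of them positive and 1 negative. Of all genes, 5.16% were called positive and 8.05% negative. The calls of Nup62, Nup107 and Nup160 were lost without 10, 11 and 12 of the 16 arrays, each left out in turn. The difference, RPE minus NSR, was 0.60 for Kpna2, 0.46 for Nup62, 0.43 for Kpna3, 0.35 for Nup107, 0.34 for Nup85, 0.32 for Nup160 and -0.63 for Ipo5.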

How the results depend on the processing

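For light in RPE, the number of members called higher was 4 when RPE control 2 and the first and second RPE light arrays were all left out, and 11 to 14 without 1 array. Of all 19938 genes, 998 and 1484 to 1646 were called higher, in the same order. The number of members called lower was 0 to 1 without 1 array and 1 with an intensity trend and robust prior. Of all genes, 1429 to 1586 and 1860 were called lower, in the same order. For light in NSR, 7 to 10 members were higher and 1 to 3 lower without 1 array, where 1395 to 1822 of all genes were higher and 941 to 1098 lower. For the difference of responses, the positive calls of members numbered 3 to 7 and the negative calls 1 to 2 without 1 array, and 3 and 2 without the same 3 RPE arrays. Those of all genes numbered 882 to 1035 and 1414 to 1609 without 1 array, and 884 and 1396 without the 3. Centring each array on its median gave 9 members lower in RPE light than in NSR light, where 3804 of all 19938 genes were. It gave 16 members higher in RPE control than in NSR control, where 9625 of all genes were. Centring on the median of the genes tested was chosen after seeing the data. Other scaling turned the sign of small tissue differences. In control mice, quantile normalization gave -0.14 for Ipo8, -0.16 for Kpnb1, -0.13 for Nup214, -0.0734 for Nup88 and -0.0283 for Xpo4. Array-median centring gave 0.0684 for Nup62, 0.0305 for Nup98 and 0.0582 for Tnpo3, and leaving out RPE control 4 gave 0.0329 for Nup62. In light-exposed mice, quantile normalization gave -0.0019 for Kpna1, -0.0796 for Nup214 and -0.13 for Tnpo3, and array-median centring 0.0114 for Ipo8, 0.0497 for Nup210l, 0.0438 for Nup98 and 0.013 for Xpo1. Of these only Nup88 and Kpna1 were called in the deposited scaling. The causes were not tested.

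With the replicate block, which pairs tissues of 1 mouse, the calls beside the results changed, and no other tissue or difference call did. Within a tissue the number only labels mice: there the block removed Xpo1 in NSR (adjusted p = 0.0543) and Nup133 (0.074) and Nup153 (0.0792) in RPE. Calls kept under all alternatives run were 4 of 14 for light in RPE, 6 of 12 for light in NSR, 3 of 7 for the difference, 19 of 29 for the tissues of light-exposed mice and 23 of 29 for those of control mice. With no detection measure, how far Kpna7, Nup210 and Nup210l, the 3 members below the median gene, stood above background is unknown.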
